A study of Mus musculus with 5 samples.

Results

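Ccl20 and 6 other genes of the chemokine axes that steer lymphocytes and dendritic cells were followed through wounded and un-wounded mouse skin, cell class by cell class. The 7 genes were Ccl20 and its receptor Ccr6, Ccl17 and Ccl22 with their shared receptor Ccr4, and Ccl19 with its receptor Ccr7. They were taken by symbol alone, with no measured value used, from 27998 gene rows that carry 27933 symbols. The 7 symbols matched 8 rows, because Ccl19 has a second row on an unplaced scaffold, which held 0 UMIs in all 5 libraries. The libraries were droplet-based 3' single-cell RNA libraries from C57BL/6 mouse skin, 3 of wounded and 2 of un-wounded skin, each from cells sorted as live. For the wounded skin, mice of 7 weeks received a 6-mm punch wound and a 10-mm disc around it was taken 4 days later, so these libraries hold both the wound and its margin. The un-wounded skin is labelled as normal skin without an age, and no allele or agent is given for either group. The labels do not say whether the libraries came from separate animals, so every p-value below measures the spread between libraries, which may be technical.

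Chemokines are small secreted proteins that bind G protein-coupled receptors and draw cells along their gradient. CCL20 is the only chemokine ligand of CCR6, a receptor of type 17 T cells, B cells and some dendritic cells, and surface epithelia make it when inflammatory cytokines act on them. CCL17 and CCL22, typical products of dendritic cells, attract CCR4-bearing cells, among them skin-homing, type 2 and regulatory T cells. CCR7 guides maturing dendritic cells and naive T cells toward CCL19 and CCL21, the dendritic cells from the skin into lymph vessels and on into the lymph node.

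The 250 bases before the Ccl20 start are shown because Ccl20 was the member whose wound difference passed the test in 2 keratinocyte classes, described below. They are from RefSeq, build GRCm38.p6, chr1:83116516-83116765, plus strand, and the capitals mark bases that match the κB motif (3 G, then 5 bases of any kind, then 2 C) on either strand.
Ccl20: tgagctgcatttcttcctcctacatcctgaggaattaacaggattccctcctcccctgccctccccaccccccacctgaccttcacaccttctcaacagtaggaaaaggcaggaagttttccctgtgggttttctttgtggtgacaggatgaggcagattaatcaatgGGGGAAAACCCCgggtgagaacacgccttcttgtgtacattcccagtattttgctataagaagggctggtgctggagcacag
The capitals hold 3 overlapping matches, which begin 82, 81 and 80 bases before the start. Matches to this motif were common, since 45.8% of 32851 promoter windows of the same length held at least 1. The gene itself lies on chromosome 1 from 83116766 to 83119167 on the plus strand (ENSMUSG00000026166). On the same build, Ccr6 (ENSMUSG00000040899) lies on chromosome 17 from 8236043 to 8257141 on the plus strand. The neighbours Ccl22 (ENSMUSG00000031779) and Ccl17 (ENSMUSG00000031780) lie on chromosome 8 on the plus strand, from 94745590 to 94751699 and from 94810453 to 94812036. Ccr4 (ENSMUSG00000047898) lies on chromosome 9 from 114490316 to 114504916 and Ccr7 (ENSMUSG00000037944) on chromosome 11 from 99144196 to 99155077, both on the minus strand. Ccl19 (ENSMUSG00000071005) lies on chromosome 4 from 42754525 to 42756577 on the minus strand and overlaps 4930578G10Rik on the other strand.

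After filters, 7060, 4395 and 3987 cells were kept in wounded libraries 1, 2 and 3, against 5038 and 5137 cells in un-wounded libraries 1 and 2, 25617 in all. The medians were 6666.5, 6069 and 7940 UMIs per cell in the wounded libraries, against 6033.5 and 6828 in the un-wounded ones. Clustering gave 51 clusters, of which 42 took a class name from lists of marker genes and 9 stayed unnamed, and each class name below is short for cells like that type. Of the markers in those lists, 8 of 8 for basal keratinocytes and 7 of 7 for fibroblasts stood at 10 CPM or more in every library, as did 10 of 10 for migratory dendritic cells over the cluster. The libraries differed in makeup. Keratinocytes of all kinds made up 42.5%, 6.73% and 10.6% of the kept cells in wounded libraries 1, 2 and 3, against 82.9% and 50.8% in the un-wounded ones, and dendritic cells of all kinds 4.89%, 20.3% and 10.6%, against 1.69% and 2.08%. Levels are therefore given per class, as CPM, the UMIs of the gene scaled to a fixed total of UMIs of that class in that library. At most 1.13% of the barcodes of the smaller library were shared between any pair of libraries.

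The ligands and receptors had separate holders. Keratinocytes held most Ccl20 UMIs in every library but wounded library 2, and fibroblasts most Ccl19 UMIs in all 5 libraries. Dendritic cells held most UMIs of Ccl17, Ccl22 and Ccr7 in every wounded library, and lymphocytes most UMIs of Ccr6 in 4 of the 5 libraries. Ccr4 was split between spinous keratinocytes and lymphocytes. The kept cells held 18650 UMIs of Ccr7, 11190 of Ccl19, 7629 of Ccl22, 3569 of Ccl20, 2362 of Ccl17, 736 of Ccr4 and 153 of Ccr6, so the receptors Ccr6 and Ccr4 carry the widest counting error.

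**Figure D1:**
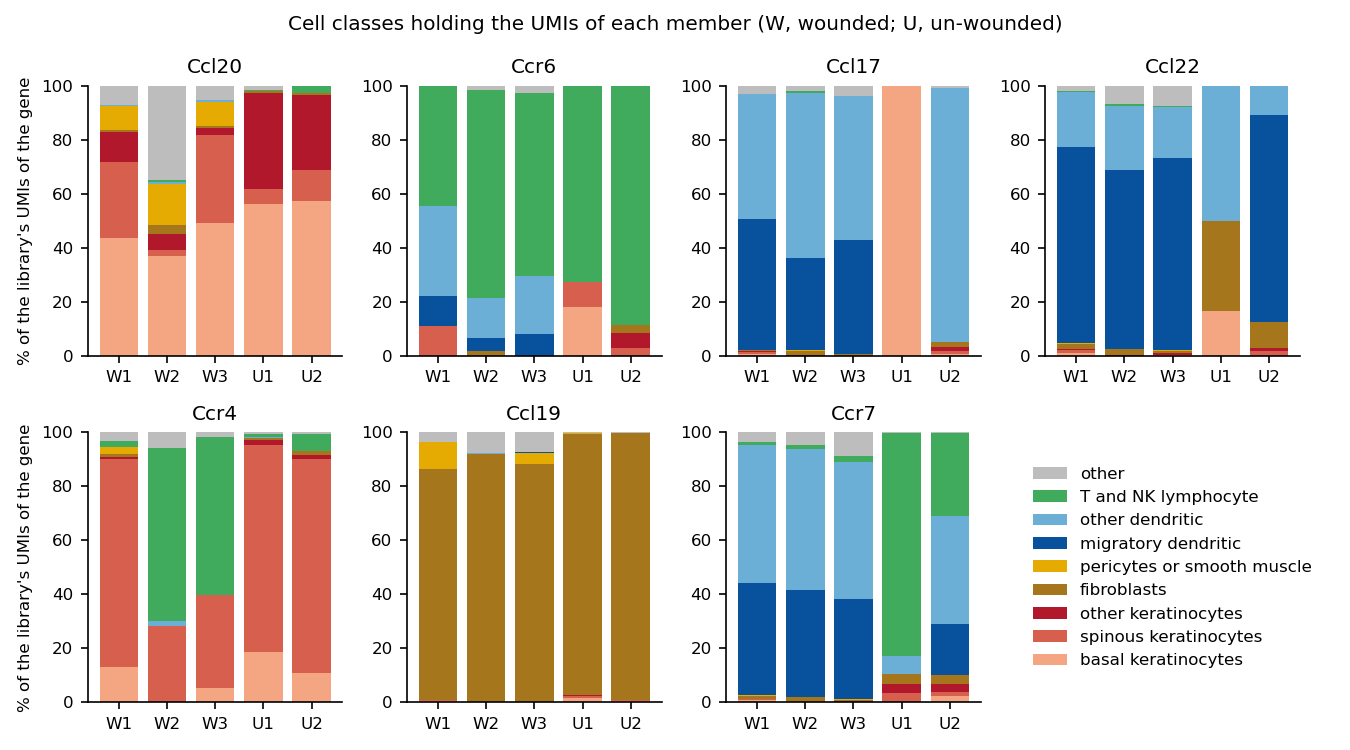
Share of each library's UMIs of a gene (%, vertical axis) that each cell class held, as stacked bars for wounded libraries W1 to W3 and un-wounded libraries U1 and U2, with 1 panel per gene. Fibroblasts held 85.7 to 98.9% of Ccl19 UMIs in the 5 libraries, while Ccr4 changes holder between libraries.

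**Figure D2:**
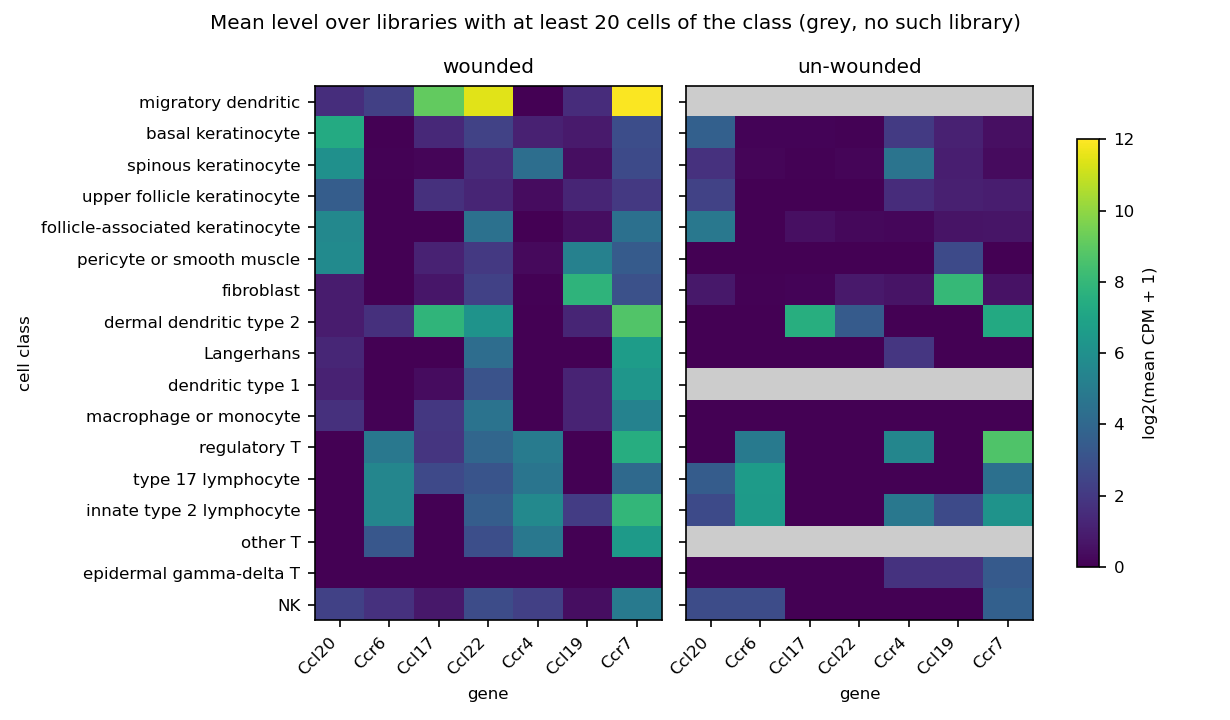
Mean level of each gene, as log2(mean CPM + 1), in each cell class, in wounded libraries (left panel) and un-wounded libraries (right panel). Only libraries with at least 20 cells of a class enter its mean, and grey marks a class with no such library, as for migratory dendritic cells in un-wounded skin.

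Summed over whole libraries, Ccl20 stood at 41.6, 4.47 and 16.4 CPM in wounded libraries 1, 2 and 3, against 12.6 and 2.99 CPM in the un-wounded libraries. Ccl17 stood at 6.21, 23.4 and 29.4 CPM, against 0.0317 and 3.10 CPM, and Ccl22 at 19.1, 123 and 66.3 CPM, against 0.190 and 2.71 CPM. Ccr7 reached 47.2, 296 and 164 CPM, against 0.919 and 6.22 CPM. The wounded libraries were thus all above the un-wounded ones for Ccl17, Ccl22 and Ccr7, whereas the ranges overlapped for Ccl20. Ccr4 was lower in wounded skin, with 2.98, 1.69 and 1.46 CPM, against 8.21 and 5.31 CPM in un-wounded skin. For Ccl19 the ranges overlapped, at 49.8, 101 and 46.7 CPM in wounded and 25.9 and 69.0 CPM in un-wounded libraries, as they did for Ccr6, at 0.165, 1.95 and 0.930 CPM, against 0.348 and 0.911 CPM. The groups thus did not overlap for 4 of 7 members, beside 46.2% of all genes tested. In edgeR's quasi-likelihood test over all genes, with Benjamini-Hochberg adjustment, 0 of 7 members passed an adjusted p of 0.05, beside 0.607% of all genes. The log2 fold change of wounded over un-wounded was 5.66 ± 1.24 for Ccr7 (SE, adjusted p = 0.0809), 5.66 ± 1.38 for Ccl22 (adjusted p = 0.0929), 3.75 ± 1.45 for Ccl17 (adjusted p = 0.177) and -1.73 ± 0.41 for Ccr4 (adjusted p = 0.0904). These 4 had an unadjusted p under 0.05, beside 4009 of 15497 genes, and the same 4 passed in DESeq2, beside 2629 of 16961 genes. Without wounded library 1 the edgeR test called 3 members, Ccr7, Ccl22 and Ccr4, beside 2141 of 15201 genes. In whole libraries, fewer cells of a class and less RNA per cell cannot be told apart, and the shares of classes moved with these values.

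Ccl20 was higher in wounded basal keratinocytes, the dividing layer next to the dermis. Basal cells had 92.6, 236 and 158 CPM of Ccl20 in wounded libraries 1, 2 and 3, against 15.4 and 8.49 CPM in un-wounded libraries 1 and 2, or 162 ± 71.8 CPM (SD, n = 3) against 11.9 ± 4.87 CPM (SD, n = 2). The lowest wounded library was above the highest un-wounded one, as for 29.4% of the genes tested in this class in either direction. In the edgeR quasi-likelihood test the log2 fold change was 3.76 ± 0.39 (SE), with adjusted p = 2.99e-06 over 11360 genes. Together with Ccl22, treated further below, 2 of the 5 members tested in basal cells were called higher, beside 1.72% of all genes. Wounded library 2 had only 29 basal cells and both of its Ccl20-holding cells together held all 52 UMIs. The log2 fold change without that library, or without any other, lay between 3.45 and 4.36 and remained called.

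Both the share of basal cells with a Ccl20 UMI and the UMIs in those cells bear on this level. The wounded libraries had 993, 52 and 320 Ccl20 UMIs in 86, 2 and 18 basal cells, against 223 and 66 UMIs in 49 and 22 cells in the un-wounded libraries. A Ccl20 UMI was present in 5.59% of 1539, 6.90% of 29 and 12% of 150 basal cells in the wounded libraries, against 2.19% of 2237 and 2.35% of 938 in the un-wounded ones. The exact 95% binomial intervals cover counting error only. For wounded libraries 1, 2 and 3 they were 4.49 to 6.86%, 0.846 to 22.8% and 7.27 to 18.3%, against 1.62 to 2.89% for un-wounded library 1 and 1.48 to 3.53% for un-wounded library 2. In fibroblasts, a class that should lack Ccl20, the shares were 1.06%, 0.299% and 0.543%, against 0.622% and 0.0485%. The median depths were 6763.5 UMIs in wounded and 6572 UMIs in un-wounded basal cells, and 6501.5 and 6272 UMIs in fibroblasts. Cells were then thinned to 1500 UMIs, and those below that depth, 21 cells of un-wounded library 1 over all classes, were left out. After thinning, 4.81 ± 2.77% of wounded and 0.910 ± 0.232% of un-wounded basal cells held a Ccl20 UMI (SD, n = 3 and n = 2). The exact two-sided permutation p over the 10 possible assignments was 0.2, where 0.1 is the lowest they allow. The transcript was concentrated, since the 2 richest basal cells held 12.6%, 100% and 36.3% of the class's Ccl20 UMIs in the wounded libraries, against 27.4% and 36.4% in the un-wounded ones. Leaving those cells out kept the call.

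Among the basal clusters, Ccl20 stood highest in the one led by Serpinb2, Epgn, Fosl1 and Krt16. That cluster had 193, 1017 and 443 CPM in wounded libraries 1, 2 and 3, against 106 and 12.8 CPM in un-wounded libraries 1 and 2, from 314, 4 and 34 cells, against 85 and 32 cells. Fosl1 encodes a subunit of the AP-1 transcription factor, and Krt16 a stress keratin of healing epidermis. A Fosl1 UMI was present in 68.6% of 86, 100% of 2 and 55.6% of 18 Ccl20-holding basal cells in wounded libraries 1, 2 and 3, and in 49.6%, 25.9% and 47.0% of the other basal cells of these libraries. In un-wounded library 1 the shares were 22.4% of 49 Ccl20-holding and 22.9% of the other basal cells, and in un-wounded library 2 they were 36.4% of 22 and 10.6%. Un-wounded library 1 thus showed no excess, and the Ccl20-holding cells were deeper in every library, with pooled medians of 7611 against 6713 UMIs in wounded and 7320 against 6550.5 UMIs in un-wounded skin. The Krt15- and Sfn-rich cluster had 69.0, 92.5 and 73.8 CPM in wounded and 11.8 and 4.48 CPM in un-wounded skin, and the cluster of dividing cells led by Cdc20 and Cenpf had 66.5, 0 and 118 CPM, against 11.2 and 4.02 CPM. In the cluster led by Fcgbp, Col17a1 and Trp63 the values were closer, at 21.1, 0 and 20.3 CPM, against 9.32 and 11.4 CPM. The mix of clusters differed between libraries as well. The Krt15-rich cluster had 895, 8 and 51 cells in wounded libraries, against 1165 and 179 in un-wounded ones, and the Col17a1-rich cluster 150, 12 and 29 cells, against 821 and 604. The Krt15-rich cluster was thus the larger of this pair in wounded libraries 1 and 3 and un-wounded library 1.

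**Figure D3:**
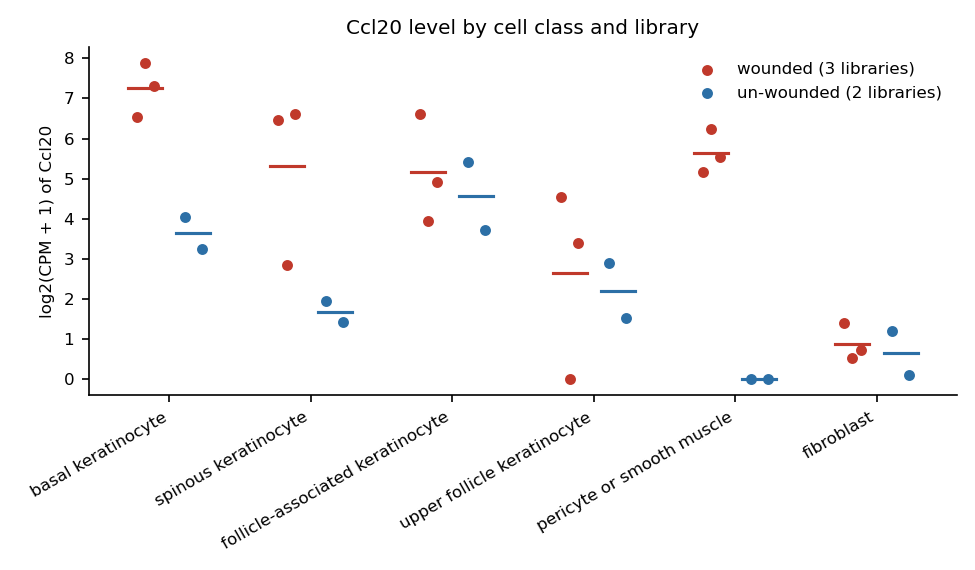
Ccl20 level, as log2(CPM + 1), by cell class, with 1 dot per library in which the class had cells and a bar at the mean, wounded at the left and un-wounded at the right of each class. Basal cells of the wounded libraries, at 92.6 to 236 CPM, all sit above those of the un-wounded libraries, at 8.49 to 15.4 CPM.

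Spinous keratinocytes, the differentiating cells above the basal layer, also had more Ccl20 in wounded skin. Their levels were 87.5, 6.14 and 97.3 CPM in wounded libraries 1, 2 and 3, against 2.83 and 1.68 CPM in un-wounded libraries 1 and 2. The groups did not overlap, as for 27.4% of the genes tested, but wounded library 2, with 3 UMIs in 51 cells, sat far below the other two. In the edgeR quasi-likelihood test Ccl20 had a log2 fold change of 5.19 ± 0.67 (SE, adjusted p = 0.000502), and Ccl20 was the 1 member called of 3 tested in spinous cells, beside 1.62% of all genes. Without either un-wounded library the fold stayed above 4.7 on the log2 scale but the adjusted p was 0.0805 or 0.0787. A Ccl20 UMI was present in 6.08%, 1.96% and 13.1% of wounded spinous cells, against 2.18% and 0.555% of un-wounded ones, at median depths of 8930 and 8206 UMIs. The richest spinous cell of wounded library 1 alone held 184 UMIs, whereas the 22 Ccl20-holding spinous cells of un-wounded library 1 held 1 UMI each.

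Within the spinous class the early cluster had the highest Ccl20 in every library but un-wounded library 1. In this cluster, led by Krt1, Ovol1, Krt16 and Krt6b, Ccl20 had 128, 15.8 and 133 CPM in wounded libraries, against 2.24 and 5.46 CPM in un-wounded ones. The clusters led by Mt4 and Krtdap, and by Krt77, had 2.44, 0 and 0 CPM and 12.2, 0 and 11 CPM in wounded libraries, against 3.69 and 0.479 CPM and 2.16 and 0 CPM in un-wounded ones. The early cluster made up 640 of the 1026 wounded spinous cells and 450 of the 1730 un-wounded ones. The wound effect on Ccl20 was 1.77 ± 0.55 larger on the log2 scale in spinous than in basal cells (SE, unadjusted p = 0.00355), but this difference did not pass across all genes (edgeR quasi-likelihood adjusted p = 0.458), beside 0.143% of genes that did. It was called when any 1 of the wounded libraries or un-wounded library 2 was left out, with values of 1.39 to 2.10 over all 5 omissions. The difference was 0.80 in DESeq2 (adjusted p = 1), 1.17 at 5% mitochondrial UMIs and 2.66 with finer clustering, none of them called.

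Other epidermal classes held Ccl20 in both groups. Follicle-associated keratinocytes had 97.7, 14.3 and 28.9 CPM in wounded libraries, against 41.5 and 12.1 CPM in un-wounded libraries, so the ranges overlapped. These held 7.86%, 5% and 1.84% of the Ccl20 UMIs of the wounded libraries, against 32.7% and 25.2% of those of the un-wounded ones. Upper follicle keratinocytes had 22.4, 0 and 9.42 CPM, against 6.39 and 1.87 CPM (log2 fold change 1.86 ± 0.73, edgeR quasi-likelihood adjusted p = 0.999, beside 0.175% of genes called). All keratinocytes together held 82.9%, 45% and 84.4% of the Ccl20 UMIs, against 97.5% and 96.5%. Their summed Ccl20 had a log2 fold change of 3.15 ± 0.63 (edgeR quasi-likelihood adjusted p = 0.0823, beside 0.475% of genes called), which was called without wounded library 2 (adjusted p = 0.00131). In wounded library 2, 43 of the 140 Ccl20 UMIs lay in 3 cells of an unnamed cluster led by Cthrc1 and Cxcl5. Across 47 clusters the genes whose levels followed Ccl20 most closely were Egr4 and Arc, both immediate early genes (Pearson r = 0.85 each), then Pawr (0.84), Edn2 (0.83) and Pard6b (0.82).

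Ccr6, the receptor for CCL20, was a rare transcript of lymphocytes. T and NK lymphocytes held 4, 47 and 25 of the 9, 61 and 37 Ccr6 UMIs in wounded libraries 1, 2 and 3, against 8 of 11 and 31 of 35 in un-wounded libraries 1 and 2. A Ccr6 UMI was present in 4.08% of 98, 7.25% of 510 and 10.0% of 239 wounded lymphocytes, against 5.43% of 129 and 12.5% of 192 un-wounded ones. The level was 9.55, 19.9 and 19.99 CPM in wounded libraries, against 28.6 and 42.1 CPM in un-wounded ones. Wounded lymphocytes were thus all below un-wounded ones in level, as for 32.9% of the genes tested in either direction, while the shares of cells overlapped. For Ccr6 the log2 fold change was -0.85 ± 0.44 (edgeR quasi-likelihood adjusted p = 0.421). In lymphocytes 0 of the 3 members tested passed, 0 had an unadjusted p under 0.05 and 0 passed in DESeq2, beside 0.51% of all genes called by edgeR. The exact permutation p for the level was 0.1, the lowest the 10 assignments allow. The median depth was 3686 UMIs in wounded and 2699 UMIs in un-wounded lymphocytes, and the wounded libraries had 5, 119 and 59 type 17 cells, against 4 and 25 in the un-wounded libraries. Epidermal-type gamma-delta T cells were 23 of 98, 9 of 510 and 15 of 239 wounded lymphocytes, against 98 of 129 and 36 of 192 un-wounded ones. The pooled lymphocyte values of Ccr6, Ccr4 and Ccr7 thus come from unlike mixes of cells, whose part was not tested.

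Ccr6 levels were highest in 3 kinds of lymphocyte. Type 17 lymphocytes, led by Il17a and Cd163l1, had a Ccr6 UMI in 1 of 5 cells, 15.1% of 119 and 16.9% of 59 cells in wounded libraries, against 1 of 4 cells and 32.0% of 25 cells in un-wounded ones. In innate type 2 lymphocytes, led by Csf2, Calca and Il5, the shares were 0% of 5, 13.3% of 45 and 10.0% of 30 cells, against 27.3% of 11 and 26.8% of 41 cells. Regulatory T cells had 16.7%, 14.1% and 20.5% of cells with a UMI in wounded libraries, against 27.3% and 10.8% in un-wounded ones, from 11 to 71 cells. In fibroblasts, a class that should lack it, each library held at most 1 Ccr6 UMI. Lower levels were found in other T cells, at 7.33 and 9.67 CPM in the wounded libraries with at least 20 of them, and in wounded migratory dendritic cells, at 2.76 to 4.43 CPM. Of the Ccr6-holding lymphocytes, 33 of 65 in wounded and 18 of 31 in un-wounded skin held Gata3, the type 2 and regulatory cell transcription factor. Foxp3, which defines regulatory T cells, was present in 17 and 5 of them. The genes that followed Ccr6 most closely across the 47 clusters were Tnfrsf25 (Pearson r = 0.86), Pdcd1 (0.84), Icos (0.81), Fam169b (0.80) and Il17a (0.78).

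**Figure D4:**
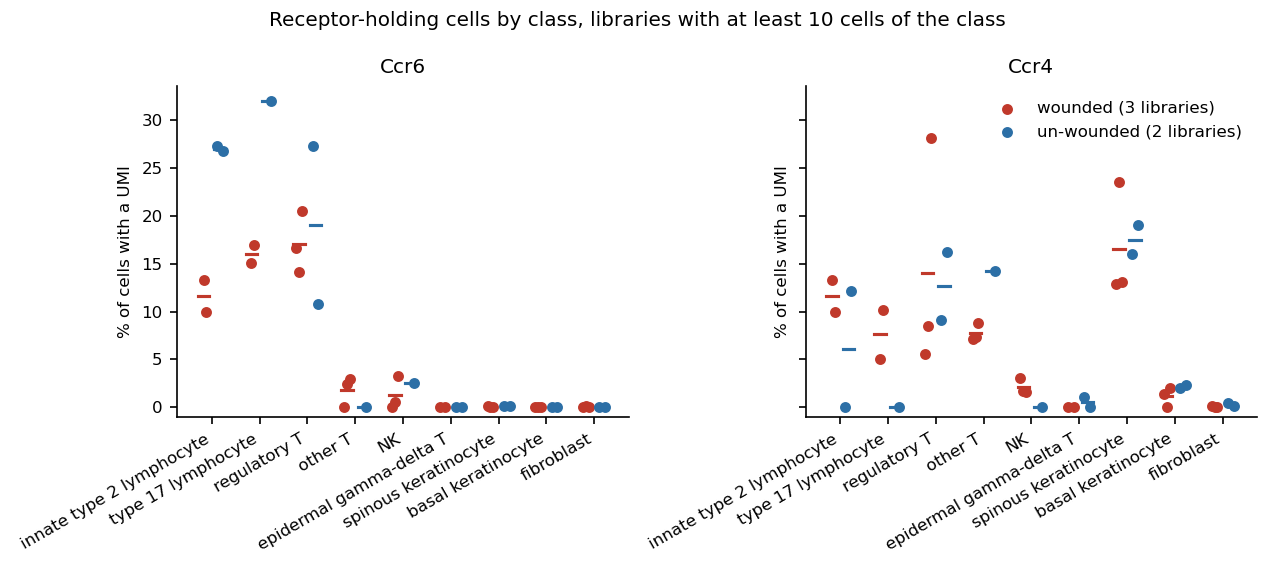
Share of cells with at least 1 UMI (%) of Ccr6 (left) and Ccr4 (right) by cell class, with 1 dot per library that had at least 10 cells of the class and a bar at the mean, wounded at the left and un-wounded at the right of each class. Ccr6 was seen in lymphocytes, whereas Ccr4 was also seen in 12.9 to 23.5% of spinous keratinocytes, above the shares of basal keratinocytes and fibroblasts.

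Ccl17 was a transcript of a minority of dendritic cells. Dendritic cells held 94.7%, 95.5% and 95.6% of its UMIs in wounded libraries 1, 2 and 3, against 0% of 1 UMI and 94.1% of 119 UMIs in un-wounded libraries 1 and 2. Their level was 132, 103 and 267 CPM in wounded skin, against 0 and 151 CPM in un-wounded skin, so the groups overlapped. Wounded over un-wounded, the log2 fold change of Ccl17 was 1.16 ± 1.21 (edgeR quasi-likelihood adjusted p = 0.757). It was 0.52 without wounded library 3, 0.21 without un-wounded library 1 and 2.24 without the 2 richest cells. Without un-wounded library 2 the un-wounded side held 0 UMIs, so the fitted 12.21 is no measure of size. A Ccl17 UMI was present in 6.09%, 6.63% and 13.4% of wounded dendritic cells, against 0% of 85 and 8.41% of 107 un-wounded ones, beside at most 0.717% of fibroblasts in any library. Of the 85 dendritic cells of un-wounded library 1, 67 were Langerhans cells, a class with 0 Ccl17 UMIs.

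Within the dendritic compartment, Ccl17 lay in migratory cells, type 2 dermal cells and an unnamed cluster led by Pgf, Siglecg and Il4i1. In migratory dendritic cells, which carry the maturation genes Fscn1 and Ccr7 and leave the skin for lymph nodes, it had 713, 232 and 734 CPM in the wounded libraries. In the type 2 cluster led by Cd209d and Mgl2 it had 272, 250.2 and 724 CPM in wounded libraries, against 0 and 187 CPM in un-wounded libraries, and 11%, 9.71% and 16% of cells held a UMI, against 0% of 18 and 9.47% of 95 cells. A few cells carried much of it, since the 2 richest type 2 cells held 75.8%, 75.1% and 62.0% of the UMIs of that class in wounded libraries, against 76.8% in un-wounded library 2. The unnamed cluster held 4, 259 and 94 Ccl17 UMIs, so it was the largest dendritic holder in wounded library 2, where migratory cells held 252 and 1 unnamed cell alone 201 UMIs. In the other type 2 cluster, led by Pmaip1 and Cd209a, it was almost absent, at 0, 2.07 and 0 CPM.

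Ccl22 was a transcript of migratory dendritic cells above all. These held 72.8%, 66.3% and 71.3% of its UMIs in wounded libraries 1, 2 and 3, and 76.9% in un-wounded library 2, where 2 such cells were found and 1 of them held 75 of 80 UMIs. The level in migratory cells was 3304, 2346 and 2776 CPM in wounded libraries, and 81.6%, 73.2% and 88.6% of the 38, 157 and 79 cells held a UMI. Where a migratory cell held Ccl17 it nearly always held Ccl22, in 75 of 77 wounded cells (97.4%), against 71.6% of the migratory cells with no Ccl17 UMI. The next holder was the unnamed Pgf-led dendritic cluster, seen in wounded libraries alone with 40, 317 and 173 cells, at 520.3, 316 and 206 CPM. The Cd209d-led type 2 cluster had 56.9, 128 and 181 CPM, against 29.5 and 10.00 CPM in un-wounded skin.

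Over all dendritic cells, Ccl22 stood at 399, 506 and 568 CPM in wounded libraries, against 6.36 and 123 CPM in un-wounded ones, or 491 ± 85.6 CPM (SD, n = 3) against 64.6 ± 82.4 CPM (SD, n = 2). The groups did not overlap, as for 29.2% of the genes tested in this class. The log2 fold change was 2.93 ± 0.98 (edgeR quasi-likelihood adjusted p = 0.328), and 0 of the 3 members tested passed in dendritic cells, beside 0% of the 9081 genes tested, of which 1022 had an unadjusted p under 0.05 and 164 passed in DESeq2. The Ccl22 value was 6.56 without un-wounded library 2, 2.05 without un-wounded library 1 and 5.49 without the 2 richest cells. Ccl22 and Ccr7 were the members that DESeq2 called there, with adjusted p of 0.0498 and 0.0239. A Ccl22 UMI was present in 20.3%, 32.6% and 37.5% of wounded dendritic cells, against 2.35% and 10.3% of un-wounded ones, at median depths of 7803 and 5606 UMIs. Migratory cells made up 0.54%, 3.57% and 1.98% of the kept cells in wounded libraries, against 0% and 0.04% in un-wounded ones, so the level over all dendritic cells moved with the makeup of the compartment.

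In basal keratinocytes Ccl22 was called higher as well (log2 fold change 5.09 ± 1.22, edgeR quasi-likelihood adjusted p = 0.0249), from 12, 2 and 5 UMIs in wounded libraries, against 1 and 0 UMIs in un-wounded ones. These UMIs were in 0.780%, 6.90% and 3.33% of wounded basal cells, against 0.0447% and 0% of un-wounded ones. Fibroblasts had 1.06%, 4.90% and 2.28%, against 0.415% and 0.485%. In level, wounded basal cells had 1.12, 9.08 and 2.47 CPM and wounded fibroblasts 1.70, 7.61 and 2.74 CPM, so the basal levels lie near those of a class that should lack Ccl22, with the basal shares above the fibroblast shares in wounded libraries 2 and 3. The 8 markers of type 2 dendritic cells summed to 94.0, 231 and 106 CPM in wounded basal cells, against 78.6 and 64.5 CPM in un-wounded ones, with 1 to 4 of them at 0, and their part in the value was not tested. The call was lost with DESeq2 (adjusted p = 0.0546), without normalization by TMM (0.0618), with the replicate block (0.0822) and when wounded library 3 (0.0677) or either un-wounded library (0.198 and 0.188) was left out. The genes nearest to Ccl22 across clusters were Il4i1 (Pearson r = 0.90), Il12b (0.84), Siglecg (0.83), Dnah2 (0.82) and Cd40 (0.81), and those nearest to Ccl17 were Cmtr1 (0.70), Kdm4a (0.69), H2-Eb2 (0.68), Spib (0.67) and Klri1 (0.63). Between each other, Ccl17 and Ccl22 had r = 0.64.

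**Figure D5:**
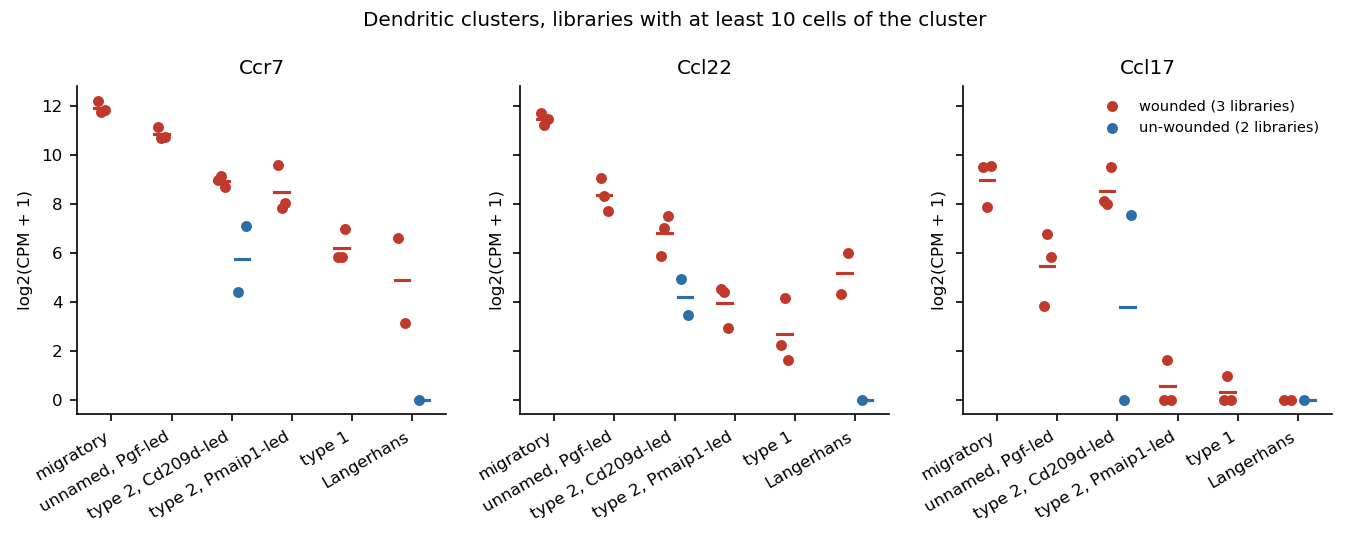
Levels of Ccr7, Ccl22 and Ccl17, as log2(CPM + 1), in the dendritic clusters, with 1 dot per library that had at least 10 cells of the cluster and a bar at the mean, wounded at the left and un-wounded at the right. In the Cd209d-led type 2 cluster Ccr7 had 405 to 557 CPM in wounded libraries, against 19.7 and 133 CPM in un-wounded ones, while no un-wounded library had 10 migratory cells.

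Ccr4, the receptor for both of these ligands, was found in spinous keratinocytes as well as lymphocytes. Spinous cells held 125, 15 and 20 of the 162, 53 and 58 Ccr4 UMIs in wounded libraries 1, 2 and 3, against 199 of 259 and 162 of 204 in un-wounded libraries 1 and 2. A Ccr4 UMI was present in 12.9%, 23.5% and 13.1% of wounded spinous cells, against 16.1% and 19.0% of un-wounded ones, beside at most 0.415% of fibroblasts. Their level was 17.2, 30.7 and 9.14 CPM in wounded libraries, against 25.6 and 20.9 CPM in un-wounded ones, so the groups overlapped. The log2 fold change was -0.33 ± 0.33 (edgeR quasi-likelihood adjusted p = 0.898), so the lower Ccr4 of whole wounded libraries was not seen as a lower level within this class. Beside it, spinous cells were 11.6%, 1.16% and 3.84% of the kept cells in wounded libraries, against 20.03% and 14.0% in un-wounded ones.

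The Ccr4-holding spinous cells held lymphocyte transcripts in small shares, near those of the other spinous cells. Ptprc, the leukocyte marker CD45, was present in 3 of 138 of them in wounded skin (2.17%) and 4 of 299 in un-wounded skin (1.34%), against 1.58% and 0.978% of the other spinous cells. Cd3e, a T cell receptor subunit, was present in 1 and 14 of them, or 0.725% and 4.68%, against 1.58% and 3.42% of the other spinous cells. Ccr4 was higher in the more differentiated spinous clusters, with 32.5, 36.6 and 17.8 CPM in wounded and 28.6 and 24.2 CPM in un-wounded libraries in the Mt4-led cluster. In the early Krt1- and Ovol1-led cluster it had 12.7, 21.1 and 6.97 CPM, against 16.4 and 12.4 CPM, and in basal cells 1.96, 0 and 1.48 CPM, against 3.31 and 2.83 CPM. This order along the epidermal layers ran opposite to that of Ccl20 in wounded spinous clusters. Its nearest genes across clusters were Hlf (Pearson r = 0.84), Tesc (0.82), Prkcz (0.80), Ccdc92 (0.77) and Rora (0.76).

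In lymphocytes Ccr4 stood at 9.55, 14.4 and 27.2 CPM in wounded libraries, against 10.7 and 17.7 CPM in un-wounded ones, and the groups overlapped (log2 fold change 0.42 ± 0.59, edgeR quasi-likelihood adjusted p = 0.782). Regulatory T cells held it in 5.56%, 8.45% and 28.2% of cells in wounded libraries, against 9.09% and 16.2% in un-wounded ones. In wounded libraries with at least 20 cells of a class, the mean level was highest in innate type 2 lymphocytes. It was 48.7 CPM there, against 30.7 CPM in regulatory T cells. In un-wounded library 2 the order was reversed, at 27.3 and 44.2 CPM. Of the Ccr4-holding lymphocytes, 34 of 55 in wounded skin (61.8%) and 9 of 16 in un-wounded skin (56.3%) held Gata3, and 17 and 6 held Foxp3. Lymphocytes held 2.47%, 64.2% and 58.6% of the Ccr4 UMIs of the wounded libraries, against 1.16% and 6.37% in the un-wounded ones. The 2 wounded libraries with few keratinocytes were thus those where lymphocytes were the main holder.

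Ccl19 was a fibroblast transcript whose levels overlapped between the groups. Fibroblasts held 85.7%, 92.0% and 87.9% of its UMIs in wounded libraries 1, 2 and 3, against 96.7% and 98.9% in un-wounded libraries 1 and 2. Their level was 209, 257 and 213 CPM in wounded libraries, against 341 and 182 CPM in un-wounded ones, or 226 ± 26.6 CPM (SD, n = 3) against 262 ± 112 CPM (SD, n = 2). The un-wounded values lay on both sides of the wounded ones. For Ccl19 the log2 fold change was -0.07 ± 0.27 (edgeR quasi-likelihood adjusted p = 0.957), and 0 of the 4 members tested passed in fibroblasts, beside 2.69% of all genes. Of these 4, Ccl22 and Ccr7 had an unadjusted p under 0.05, beside 1905 of 12592 genes, and DESeq2 called Ccr7, beside 536 of 13653. A Ccl19 UMI was present in 50.2%, 56.4% and 49.0% of wounded fibroblasts, against 52.1% and 48.5% of un-wounded ones, beside at most 1.33% of basal keratinocytes in any library, at median depths of 6501.5 and 6272 UMIs in fibroblasts and 6763.5 and 6572 UMIs in basal cells.

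Fibroblast clusters differed more than the groups did. The cluster led by Cpz and Cldn10 had 355, 425 and 431 CPM of Ccl19 in wounded libraries, against 451 and 216 CPM in un-wounded ones. Clusters led by Coch and Dkk2, and by Gpx3 and Lbp, had 271, 233 and 216 CPM and 123, 170.5 and 125 CPM in wounded libraries, against 245 and 254 CPM and 306 and 166 CPM in un-wounded ones. Lower levels marked a pair of clusters found almost only in wounded libraries. The cluster led by Cxcl13 and Thbs4 had 63.2, 21.4 and 18.7 CPM in 257, 221 and 107 wounded cells, against 1 and 6 un-wounded cells, and an unnamed cluster led by Cthrc1, Cxcl5 and Sfrp2 had 10.2, 37.6 and 9.47 CPM in 506, 217 and 480 wounded cells, against 1 and 4 un-wounded cells. Counting this unnamed cluster as fibroblasts, an alternative chosen after seeing the data, gave a log2 fold change of -0.75 (edgeR quasi-likelihood adjusted p = 0.239, beside 7.49% of genes called). Across clusters Ccl19 was followed most closely by CR974586.5 (Pearson r = 0.93), Pdgfrl (0.92) and the developmental transcription factor genes Zic1, Osr2 and En1 (0.91 each).

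Ccr7 was the most abundant member and lay in dendritic cells of wounded skin. They held 92.6%, 91.7% and 88.0% of its UMIs in wounded libraries 1, 2 and 3, against 6.90% of 29 UMIs and 59.0% of 239 UMIs in un-wounded libraries 1 and 2. Lymphocytes held 1.17%, 1.60% and 2.20%, against 82.8% and 31.0%. In migratory dendritic cells it had 4665, 3394 and 3599 CPM in wounded libraries, and 92.1%, 98.7% and 97.5% of cells held a UMI. The unnamed Pgf-led cluster had 2240.1, 1649.8 and 1659.9 CPM and held 26.3%, 43.4% and 43.5% of the Ccr7 UMIs of the wounded libraries. This cluster had 6 of 10 migratory markers and 8 of 8 type 2 dendritic markers at 10 CPM or more, and held Ccl22 in 40.2% of its Ccr7-holding cells and 13.3% of the others.

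Dendritic cells together had 983, 1245 and 1375 CPM of Ccr7 in wounded libraries, against 4.24 and 190.5 CPM in un-wounded ones, or 1201 ± 199 CPM (SD, n = 3) against 97.3 ± 132 CPM (SD, n = 2). The lowest wounded library stood above the highest un-wounded one. For Ccr7 in this class the log2 fold change was 3.64 ± 1.19 (edgeR quasi-likelihood adjusted p = 0.320), and 8.43 without un-wounded library 2 and 2.71 without un-wounded library 1. A Ccr7 UMI was present in 36.2%, 64.9% and 66.0% of wounded dendritic cells, against 1.18% and 16.8% of un-wounded ones, with exact 95% intervals of 31.2 to 41.6%, 61.7 to 68.1% and 61.3 to 70.5%, against 0.0298 to 6.38% and 10.3 to 25.3%. Thinned to 1500 UMIs, the shares were 42.4 ± 12.2% in wounded and 3.27 ± 4.63% in un-wounded cells (SD, n = 3 and n = 2), with an exact two-sided permutation p of 0.1, the lowest possible.

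The difference in Ccr7 was also present inside a cluster seen in both groups. The Cd209d-led type 2 cluster had 503, 557 and 405 CPM of Ccr7 in 73, 103 and 75 wounded cells, against 19.7 and 133 CPM in 18 and 95 un-wounded cells. Of these cells, 43.8%, 42.7% and 46.7% held a UMI in wounded libraries, against 5.56% and 15.8% in un-wounded ones. In type 2 dermal dendritic cells as a class the levels were 601, 337 and 348 CPM, against 19.7 and 156 CPM, with median depths of 7434 and 5618 UMIs. Fibroblasts had a Ccr7 UMI in 1.53%, 8.43% and 3.70% of cells in wounded libraries, against 0.207% and 0.388% in un-wounded ones, below the shares of the Cd209d-led cluster in the same libraries. The fibroblast difference had a log2 fold change of 3.79 ± 0.88 (edgeR quasi-likelihood adjusted p = 0.0564), and 8 of 16 alternatives called it, with adjusted p from 5.06e-12 to 0.257 over all of them. Dendritic cells, at 4.89%, 20.3% and 10.6% of the kept cells in wounded libraries and 1.69% and 2.08% in un-wounded ones, moved with it, and their part in it was not tested.

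Lymphocytes held Ccr7 in both groups. Their level was 71.7, 62.8 and 115 CPM in wounded libraries, against 85.8 and 101 CPM in un-wounded ones, and the ranges overlapped (log2 fold change 0.02 ± 0.37, edgeR quasi-likelihood adjusted p = 0.990). A UMI was present in 13.3%, 12% and 13.0% of wounded lymphocytes, against 5.43% and 5.73% of un-wounded ones, beside fibroblast shares of 1.53%, 8.43% and 3.70%, against 0.207% and 0.388%. The epidermal-type gamma-delta T cells, whose share of the lymphocytes differed between libraries, had 9.63 to 9.68 CPM of Ccr7 in the un-wounded ones. Their part in the pooled values was not tested. Among lymphocytes with at least 20 cells in a library, innate type 2 lymphocytes had the highest mean level in wounded skin. They had 113 and 374 CPM in 2 wounded libraries, against 71.0 CPM in un-wounded library 2. Regulatory T cells ran the other way, with 150.3, 148 and 209 CPM in wounded libraries, against 856 and 413 CPM in un-wounded ones. However, the shares of these cells with a UMI were 33.3%, 26.8% and 30.8%, against 27.3% of 11 and 10.8% of 37 cells. All kept cells of un-wounded library 1 together held 29 Ccr7 UMIs, in 11 cells, 1 of them with 16. Pooled over libraries, the type 2 dendritic marker Cd209a had 100 CPM in regulatory T cells, against 5.48 CPM in other T cells. Its part in these levels was not tested. Foxp3 was present in 30.5% of the Ccr7-holding lymphocytes of wounded skin and 22.2% of those of un-wounded skin. Langerhans cells of wounded library 1 had 96.7 CPM of Ccr7, from 5 of 109 cells, and the 67 of un-wounded library 1 had 0. The genes nearest to Ccr7 across clusters were Il4i1 (Pearson r = 0.92), Cd83 (0.88), Myo1g (0.87), Il21r (0.86) and H2-Oa (0.86), and Ccl22 and Ccr7 had r = 0.89 with each other.

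Other genes of these pathways were read from lists. Among cytokines, receptors and signalling genes of Ccl20 induction, 2 of 12 tested in basal keratinocytes rose and 0 fell, beside 1.84% of all genes called, with a median log2 fold change of 0.38, beside -0.08 over all genes. These were Il1b (61.3 CPM in wounded and 7.43 CPM in un-wounded basal cells, log2 fold change 2.99, edgeR quasi-likelihood adjusted p = 0.000118) and Il1a (17.4 and 3.64 CPM, 2.45, adjusted p = 0.000358), both encoding interleukin 1 cytokines. In spinous cells the same pair rose of 11 tested, beside 1.62% of all genes, Il1b to 63.2 CPM in wounded cells, against 6.27 CPM in un-wounded cells (adjusted p = 0.00363), and Il1a with a log2 fold change of 2.03 (adjusted p = 0.0422). Il1b also rose in fibroblasts, to 82.4 CPM in wounded cells, against 5.27 CPM in un-wounded cells (edgeR quasi-likelihood adjusted p = 0.00968), 1 of 11 genes of this list tested there, beside 2.69% of all genes. Neutrophil markers (S100a8, S100a9, Csf3r, Cxcr2, Retnlg, Mmp9 and Ly6g) moved with these values. Of 7, 2 or 3 stood at 10 CPM or more in wounded basal keratinocytes and 0 in un-wounded ones, with 1 to 3 at 0, and they summed to 51.8 to 150 CPM, against 0.772 to 0.828 CPM. The sums were 349 to 3273 CPM, against 1.67 to 1.94 CPM, in spinous keratinocytes and 54.7 to 169 CPM, against 0.432 to 1.88 CPM, in fibroblasts. Their part in the Il1b and Ccl20 values was not tested. The sums were not split by marker, and whether neutrophils were their source was not tested either.

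Among 20 genes of dendritic cell maturation tested in dendritic cells, the median log2 fold change was 2.24, beside -0.02 over all genes, and 0 passed in edgeR. Of the 20, 16 had an unadjusted p under 0.05, beside 1022 of 9081 genes, and 8 passed in DESeq2, beside 164 of 10470. Of 345, 890 and 424 wounded dendritic cells, 38, 157 and 79 were migratory and 40, 317 and 173 Pgf-led. In the un-wounded libraries 0 and 2 of 85 and 107 cells were migratory and 0 Pgf-led. The list shares Fscn1, Cacnb3, Il4i1, Socs2, Relb and Cd83 with the markers that named the migratory class. Its values thus moved with the makeup of the compartment, whose part was not tested. Fscn1, the actin-bundling protein of mature dendritic cells, had 355 CPM in wounded and 12.6 CPM in un-wounded dendritic cells (edgeR quasi-likelihood adjusted p = 0.149), and Il4i1, a secreted amino acid oxidase, had 333 and 8.55 CPM (adjusted p = 0.116). Cd83, a surface protein of mature dendritic cells, had a log2 fold change of 0.09. In basal keratinocytes 1 of 14 maturation genes tested rose, Fscn1 (log2 fold change 2.11, edgeR quasi-likelihood adjusted p = 0.00593), and 1 fell, Cacnb3 (-1.13, adjusted p = 0.0329), beside 1.84% of all genes called. Called higher as well were 1 of 15 maturation genes in spinous cells and 1 of 17 in fibroblasts, beside 1.62% and 2.69% of all genes. Of other lymphocyte chemokines and receptors, Cxcl10, a ligand of CXCR3, rose in spinous cells to 17 CPM in wounded skin, against 2.13 CPM in un-wounded skin (log2 fold change 3.24, edgeR quasi-likelihood adjusted p = 0.000164), 1 of 7 tested, beside 1.62% of all genes. Calls in this list were not limited to spinous cells, since in fibroblasts 1 of 9 tested rose and 1 fell, beside 2.69% of all genes. Ccl27a, the keratinocyte ligand of CCR10, fell in lymphocytes to 17.2 CPM in wounded skin, against 122 CPM in un-wounded skin (log2 fold change -2.77, edgeR quasi-likelihood adjusted p = 0.0405), 1 of 9 tested, beside 0.51% of all genes, and the keratinocyte share of the libraries moved with it, its part not tested. The lists of type 2 genes around Ccl17, Ccl22 and Ccr4 and of scavenging partners of the members had no edgeR call in the planned fits. Counting the Cthrc1-led cluster as fibroblasts, 1 of 8 type 2 genes rose. Of 4 partners 1 rose and 1 fell there, beside 7.49% of all genes.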

How the data were processed

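The deposited values are UMI counts per gene and cell barcode, not normalized, with 5372 to 7578 barcodes and 33537809 to 59621412 UMIs per library. Per the labels' protocols the chemistry was 10x 3' v1, and the submitters' processing notes name Cell Ranger 1.3.1 and mm10. Any filter on barcodes before deposit is not given in the sources used here, and every deposited barcode held at least 1410 UMIs. From these counts, barcodes with under 200 genes or over 10% mitochondrial UMIs were left out, and doublets called by Scrublet at 0.8% per 1000 barcodes, 137 to 456 per library, were removed. Cells were clustered in Scanpy 1.11.5 (2000 variable genes with the 7 members left out, 30 components, 15 neighbours, Leiden resolution 1), and immune clusters were clustered again. A cluster took a class name with at least 3 markers at 10 CPM or more and a score margin of 0.25, or, with closer scores, from markers among its 10 leading genes, and stayed unnamed where markers of another type led. Type 1 dendritic cells (182 cells) were named in the second way, since B or plasma cells scored as high. These rules were set after the scores were seen, so class names are rebuilt and not the submitters'. Counts were summed per class and library and tested with edgeR 4.0.16 (filterByExpr, TMM, quasi-likelihood, Benjamini-Hochberg at 0.05 over all genes tested) in R 4.3.3, for classes with 20 cells in every library. The alternatives were DESeq2 1.42.0, no filter, no TMM, other cell filters, doublets kept, other clusterings, leaving out each library and a replicate block. Members tested, other lists and alternatives were chosen with earlier results of these data known. Genes named from clusters are the 5 with the highest Pearson r to a member over clusters of at least 50 cells. These r values describe 47 clusters that share libraries and depth, and carry no p. Library totals compared between replicates differed by far more than sampling noise, so each library was counted as 1 sample.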

Additional observations from a re-analysis of the deposited data

Results flagged for a closer look

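Pericytes or smooth muscle cells of wounded skin held Ccl20, a signal outside the classes that were tested. A Ccl20 UMI was present in 41 of 706 such cells (5.81%) in wounded skin and in 0 of 79 in un-wounded skin, at medians of 9115.5 and 4125 UMIs, so the un-wounded cells were the shallower. A limit of 3 counts allows shares of up to 6.12% and 10.0% in the 49 and 30 cells of the un-wounded libraries, for counting error only. The level was 35.1, 74.5 and 45.4 CPM in wounded libraries 1, 2 and 3, where the 2 richest cells held 37.0%, 100% and 96.6% of the UMIs. Krt14, a basal keratin, was present in 34 of the 41 cells (82.9%) and in 70.4% of the other wounded pericytes, and in 84.8% of the un-wounded ones. The Ccl20-holding cells had a median of 13056 UMIs, against 8846 UMIs in the other wounded pericytes.

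An unnamed cluster of 26 cells led by Ccl19, seen in wounded libraries alone with 2, 13 and 11 cells, had a pooled Ccl19 level of 525 CPM, with 75.5, 825 and 215 CPM in wounded libraries 1, 2 and 3. Its cells scored nearest to neutrophils and to fibroblasts.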

How the results depend on the processing

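Of 477 values over 35 results, 413 kept their direction and side of the threshold, 8 lost a call, 33 gained one, 14 reversed and 9 moved, and the causes were not tested. Ccl20 in basal cells remained called in all alternatives run, with log2 fold changes of 3.45 to 4.36 when 1 library was left out and 3.46 to 3.82 otherwise. In spinous cells the values without 1 library ran from 4.74 to 5.59. The spinous minus basal difference was called with no filter (1.80) and without the 2 richest cells (1.90), with 1.39 to 2.10 when 1 library was left out. The members called in whole libraries were 0, against 4 in DESeq2, 2 with no filter and 0 to 3 without 1 library. Within classes they were 3, against 9 in DESeq2, 13 with no filter and 1 to 7 without 1 library. Some of these classes lie within others, so 1 member can count more than once, and the calls over all genes, given below, moved too. The replicate numbers of the labels are shared by the groups, and same-numbered libraries deviated together from their group means (r = 0.46 and 0.42). With 2 un-wounded libraries these deviations mirror each other, so the r values are not independent and do not establish pairing. Keratinocytes were also most frequent in library 1 of each group, at 42.5% in wounded and 82.9% in un-wounded skin. Under the replicate block 11 calls of members within classes were made, beside 1780 of 12592 genes called in fibroblasts and 560 of 6668 in lymphocytes. With this block Ccr4 in lymphocytes was -0.13 and Ccr7 in lymphocytes -0.39. Other reversals were of values near 0. Ccl19 in fibroblasts ran from -0.44 to 0.42 without 1 library (0.01 without wounded library 1 and 0.42 without un-wounded library 1). Ccr6 in whole libraries ran from -0.11, without wounded library 2, to 1.5. Ccr7 in lymphocytes was -0.18 with no TMM and -0.11 at 5% mitochondrial UMIs, and -0.38 to 0.35 without 1 library (-0.38 without wounded library 3, -0.17 without un-wounded library 1). The difference in the thinned share of Ccl19-holding fibroblasts was 1.59 percentage points without thinning and -4.71 to 3.30 without 1 library, and that of Ccl17-holding dendritic cells -2.10 to 4.45. Called genes were 94 in whole libraries, against 2629 in DESeq2, 700 with no filter and 0 under the block. They were 209 in basal cells, against 117, 380 and 525, with 124 under no TMM. In spinous cells they were 177, against 336 with no filter, and in dendritic cells 0, against 164, 286 and 215. With 1 un-wounded library left out, the lone library is assumed to vary like the others. Ccr6 and Ccr4 are limited by depth, with 153 and 736 UMIs in all.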
